A study of Mus musculus with 6 samples.

Results

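RNA levels of 40 genes of DNA replication and S phase were followed in colonies grown from mouse pancreatic cells in which Glis3 or CD133 had been knocked down. The genes were chosen by name and known role, not by a threshold on their values. Earlier results of these data were known at that point, so counts of these genes are not independent support. All 40 were found among the 11164 genes with a value. They cover the replicative helicase, origin licensing, the polymerases, the sliding clamp and its loader, Okazaki fragment joining, nucleotide supply, chromatin assembly behind the fork, and the regulators of S phase entry. Every colony grew from CD133-high, CD71-low cells (Prom1 encodes CD133), sorted from the pancreas of adult C57Bl/6 mice aged 2 to 4 months, infected with lentiviral shRNA and selected with puromycin. All groups shared the same 3-week culture in methylcellulose with Matrigel, RSPO1, nicotinamide, exendin-4, activin B, fetal calf serum and conditioned media. The 3 groups held 2 libraries each, labelled replicates 1 and 3, and carried 1 control shRNA with no mammalian target, a pool of 5 shRNA clones against Glis3 (a zinc finger transcription factor), or a pool of 5 against CD133. The control and the knockdowns therefore also differ in the number of shRNA clones, and each knockdown is a pool and not a clonal line. Whether replicates 1 and 3 were separate mice or cultures is not stated in the labels, and p-values then rest on a spread that may be technical.

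DNA is copied once in each cell cycle. In G1 phase the licensing factors load an inactive ring of MCM proteins onto origins; at the start of S phase CDC45 and the GINS complex turn that ring into a moving helicase, and polymerases held by the PCNA clamp copy both strands behind it. Genes for these proteins are known targets of the E2F transcription factors, which cyclin E and its kinase help to release, so their RNA rises in dividing cells and is low in resting ones. In bulk RNA a larger share of cells in S phase and more RNA per cycling cell cannot be told apart, and this holds for every value given here.

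Values are RPKM, reads scaled by transcript length and by library size. This scaling alone does not make libraries comparable, and the number of calls changed with other scalings, as given below. Summed RPKM per library was 267688 to 279122, and depth estimated from the steps of low values was 25.8 to 29.2 megareads, which puts an estimated 103 to 4941 reads behind each value of the 40 genes. The knockdowns matched their labels: Glis3 was at 26.05 and 24.22 RPKM in the controls, 13.31 and 11.96 in the Glis3 knockdown, and 24.75 and 24.19 in the CD133 knockdown, while Prom1 was at 191.25 and 203.42, 220.99 and 201.59, and 88.03 and 96 RPKM in the same order. Of 14 ductal markers 13 had a value and summed to 8112 to 10680 RPKM, of which Spp1 made up 3127.42 to 6732.95. None of the 13 passed in the Glis3 knockdown, while in the CD133 knockdown Krt19, Krt8, Sox9, Car2, Anxa2 and Cdh1 rose and Spp1 fell, calls that were all lost without either control or CD133 shRNA library 1. Of the other markers, 1 of 15 acinar markers had a value and summed to 0.49 to 1.06 RPKM, 5 of 12 endocrine markers summed to 1.1 to 12.84 RPKM, and none of 7 endothelial markers had one. Of 10 immune markers 2 had a value, Cd14 at 293.14 to 422.1 RPKM and Cd68 at 5.12 to 6.39. Of 12 mesenchymal markers 2 had one, and the tested one, Fn1, was at 112.32 and 111.93 RPKM in the controls, 53.48 and 56.31 in the Glis3 knockdown, and 84.7 and 87.79 in the CD133 knockdown, a fall in both (-1.02 and -0.38). The 1 of 7 neural and Schwann markers with a value was Ncam1, at 3.89 and 3.75 RPKM in the controls. It was at 1.79 and 1.22 in the Glis3 knockdown, where it fell (-0.95), and at 3.3 and 3.75 in the CD133 knockdown. The call of Ncam1, and that of Fn1 in the CD133 knockdown, were also lost without either control. Among progenitor factors 2 of 9 tested genes rose in each knockdown, beside 8.39% and 8.16% of all tested genes. Several of these markers moved with the groups, and their part in the results was not tested. Differences between groups were tested with limma on log2(RPKM + 1) over the 10829 genes whose mean reached 1 RPKM, and a gene is said to have risen or fallen where its adjusted p was under 0.05.

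In the Glis3 knockdown 33 of the 40 genes rose, none fell and 7 did not pass the test. Among all tested genes 909 (8.39%) rose and 491 (4.53%) fell in that comparison. With each library centred on its median gene the split was 576 higher and 712 lower, while 25 of the 40 replication genes still rose and none fell. The rises of Mcm2, Cdc45, Pole, Rfc2, Rfc5, Rpa1 and Chaf1b were lost both with this centring and with quantile normalization. The median log2 difference of the 40 genes was 0.47, beside 0.04 over all tested genes. Both Glis3 knockdown libraries lay above both controls for all 40 genes, as they did for 38.5% of all tested genes. In the CD133 knockdown 16 of the 40 rose, none fell and 24 did not pass, beside 884 (8.16%) of all tested genes that rose and 394 (3.64%) that fell. With median centring that split was 559 higher and 612 lower, and 9 of the 40 rose, while with quantile normalization 6 of the 40 rose. Mcm5, Fen1, Rrm2, Uhrf1, Ccne1 and E2f1 rose with both. The median log2 difference was 0.31, beside 0.04 over all tested genes. Both CD133 knockdown libraries lay above both controls for 39 of the 40, beside 40.3% of all tested genes, and the exception was Slbp, which lay below them, as did 22.1% of all tested genes. The 2 comparisons use the same control libraries and are not independent of each other.

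**Figure D1:**
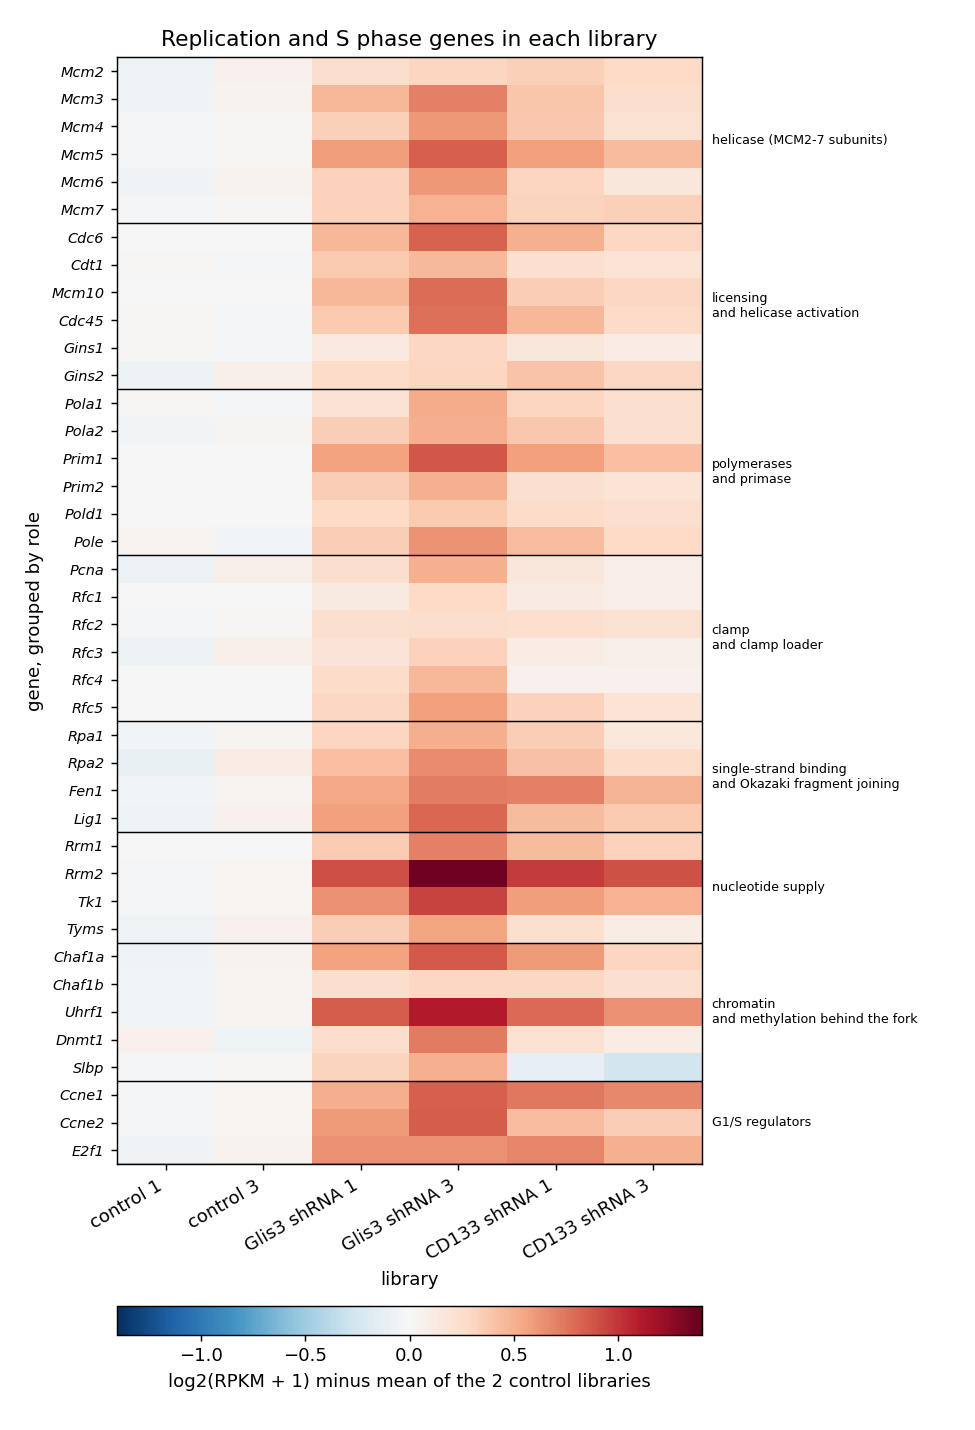
Each row is 1 of the 40 genes, grouped by role, and each column is 1 library; colour gives log2(RPKM + 1) minus the mean of the 2 control libraries. All knockdown libraries are above both controls for 39 of the 40 genes in the values as deposited, Glis3 shRNA library 3 holds the highest value for 37 of them, and Slbp is the row in which the CD133 shRNA libraries lie below the controls.

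The MCM helicase genes all rose in the Glis3 knockdown. Counts by role, here and below, stand beside the 8.39% of all tested genes that rose in that knockdown. In the CD133 knockdown that share was 8.16%. The rise of Mcm2 was lost with median centring, quantile normalization, replicate number as a block, or only the 2 groups compared in the fit. That of Mcm6 was lost with median centring and with the block, and that of Mcm4 with the block. The 6 subunits form the ring that unwinds DNA at the fork, and their levels in controls ran from 25.86 RPKM for Mcm6 through Mcm7, Mcm4 and Mcm3 to 9.97 for Mcm2 and 9.53 for Mcm5. Log2 differences in the Glis3 knockdown ran from 0.28 for Mcm2 to 0.71 for Mcm5, with a median of 0.47. Mcm5 (GRCm38, chr8:75109569-75128439, plus strand) was at 9.40 and 9.65 RPKM in the controls, 14.81 and 17.85 in the Glis3 knockdown, and 14.71 and 13.27 in the CD133 knockdown. All 4 knockdown libraries were above both controls, and the highest was Glis3 shRNA library 3. The log2 difference of Mcm5 was 0.71 (SE 0.0936, adjusted p = 0.00925) in the Glis3 knockdown and 0.51 (SE 0.0936, adjusted p = 0.0240) in the CD133 knockdown. Mcm2, the subunit whose tail also binds histones, was at 9.55 and 10.39 RPKM in the controls, 12.05 and 12.55 in the Glis3 knockdown, and 12.82 and 12.25 in the CD133 knockdown. Mcm2 and Mcm5 thus had similar levels in the controls, while in the Glis3 knockdown the mean was 16.3 RPKM for Mcm5 and 12.3 for Mcm2. In the CD133 knockdown Mcm2, Mcm5 and Mcm7 rose, and Mcm3, Mcm4 and Mcm6 had log2 differences of 0.32, 0.30 and 0.23 that did not pass. With quantile normalization Mcm5 alone of these subunits rose there.

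The promoters of the helicase genes Mcm5 and Mcm6 are shown. Of the 40 genes, 33 had a promoter window of 250 bases before to 50 after the transcription start in RefSeq (GRCm38.p6). Sequences run 5′ to 3′ on the strand of the gene, those of Mcm5 and Mcm6 up to 1 base before the start, and capitals mark E2F words (TTTCCCGC, TTTGGCGC, TTTCGCGC and TTTGCCGC, which may overlap) and CCAAT boxes, on either strand.
Mcm5, chr8:75109309-75109508, plus strand: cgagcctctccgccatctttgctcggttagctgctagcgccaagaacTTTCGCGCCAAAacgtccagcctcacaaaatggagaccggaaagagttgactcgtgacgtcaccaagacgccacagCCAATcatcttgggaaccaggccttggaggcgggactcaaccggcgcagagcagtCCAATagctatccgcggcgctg
Mcm6, chr1:128359706-128359905, minus strand: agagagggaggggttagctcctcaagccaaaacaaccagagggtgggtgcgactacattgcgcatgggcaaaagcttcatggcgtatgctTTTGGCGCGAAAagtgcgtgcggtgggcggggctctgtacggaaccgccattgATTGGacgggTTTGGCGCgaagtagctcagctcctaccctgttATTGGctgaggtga
Both windows hold the 12-base site TTTGGCGCGAAA, on opposite strands of the genes. This site was noticed in the printed windows and then counted, so its rarity is not independent support for a site shared by these genes. Among 32851 promoter windows 4 (0.012%) hold it, those of Mcm5, Mcm6, Mycn and Msh3. An E2F word stood in the window of 12 of the 33 genes, or in 12 of their 40 windows (30%), beside 2.3% of all windows and 4.2% of the windows of tested genes. CCAAT stood in 57.5% of the windows of these genes beside 37.4% of all windows and 37.8% of those of tested genes. The cell cycle homology region words TTTGAA and TTCGAA stood in 15.0% of the windows of these genes, beside 19.2% of all windows and 13.5% of the windows of tested genes. In the Glis3 knockdown 9 of the 12 genes with an E2F word rose, with a median log2 difference of 0.48, and 19 of the 21 without one rose, with a median of 0.53. A word in a window is a description of its letters and not a site of binding.

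Of the licensing and helicase activation genes, 4 of 6 rose in the Glis3 knockdown and 1 of 6 in the CD133 knockdown. Cdc6, which loads the MCM ring together with CDT1, was at 1.87 and 1.86 RPKM in the controls, 2.95 and 4.08 in the Glis3 knockdown, and 3.06 and 2.49 in the CD133 knockdown. The controls were almost equal and every knockdown library was higher, with the Glis3 knockdown pair spread the most. Its log2 difference was 0.64 (SE 0.133, adjusted p = 0.0285) in the Glis3 knockdown and 0.39 (SE 0.133, adjusted p = 0.102) in the CD133 knockdown. Cdt1 (0.41), Mcm10 (0.62), which helps to start unwinding, and Cdc45 (0.57), part of the active helicase, also rose in the Glis3 knockdown. Both GINS genes, whose products join CDC45 on the ring, did not pass there. Gins1 was at 3.55 and 3.48 RPKM in the controls, 3.95 and 4.5 in the Glis3 knockdown, and 4.05 and 3.86 in the CD133 knockdown. Its libraries did not overlap between the controls and either knockdown, but the log2 difference in the Glis3 knockdown was 0.21 (95% confidence interval 0.03 to 0.39, adjusted p = 0.116). Gins2 was the 1 gene of the 40 that rose in the CD133 knockdown (0.34, adjusted p = 0.0451) without passing in the Glis3 knockdown (0.28, adjusted p = 0.0747). The rise of Gins2 was lost with median centring, with quantile normalization and with replicate number as a block. The difference between the knockdowns for Gins2 was -0.07 (95% confidence interval -0.27 to 0.13), so a difference between them was not shown.

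Of the polymerase and primase genes, 5 of 6 rose in the Glis3 knockdown and 2 of 6, Prim1 and Pold1, in the CD133 knockdown. Both rises in the CD133 knockdown were lost with quantile normalization and with replicate number as a block, and that of Pold1 also with median centring. Prim1, the catalytic subunit of the primase that lays down RNA primers, was at 3.81 and 3.82 RPKM in the controls, 6.12 and 7.80 in the Glis3 knockdown, and 6.19 and 5.45 in the CD133 knockdown. The lowest knockdown library was thus well above both controls. Its log2 difference was 0.72 (SE 0.109, adjusted p = 0.0129) and 0.50 (SE 0.109, adjusted p = 0.0346). Its partner Prim2 differed by 0.42 in the Glis3 knockdown, where it rose, and by 0.21 in the CD133 knockdown, where it did not pass. The catalytic subunits of the leading and lagging strand polymerases, Pole and Pold1, rose by 0.49 and 0.33 in the Glis3 knockdown. Pola1, the catalytic subunit of polymerase alpha, was the member of this role that did not pass there (0.36, adjusted p = 0.0719), while Pola2, its accessory subunit, rose by 0.43.

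The clamp and its loader had the smallest differences of the 8 roles, with median log2 differences of 0.31 in the Glis3 knockdown and 0.12 in the CD133 knockdown. Pcna, the sliding clamp, had the highest mean level of the 40 genes. It was at 54.93 and 61.53 RPKM in the controls, 68.90 and 82.53 in the Glis3 knockdown, and 65.26 and 62.06 in the CD133 knockdown. The Glis3 knockdown libraries stood above both controls, and the lower CD133 knockdown library stood just above the higher control. The log2 difference of 0.37 in the Glis3 knockdown did not pass (SE 0.0974, adjusted p = 0.0537), nor did that of 0.13 in the CD133 knockdown (adjusted p = 0.419). Of the 5 loader subunits, Rfc2, Rfc4 and Rfc5 rose in the Glis3 knockdown, and Rfc2 also in the CD133 knockdown. The rises of Rfc2 and Rfc5 were lost with median centring and with quantile normalization, and that of Rfc4 with quantile normalization. Rfc5 was at 5.51 and 5.58 RPKM in the controls, 7.02 and 8.76 in the Glis3 knockdown, and 7.17 and 6.5 in the CD133 knockdown. Rfc2 had the most even values, at 6.18 and 6.34, 7.49 and 7.58, and 7.53 and 7.44 RPKM in the same order. For Rfc2 the knockdown groups were at about the same level, with log2 differences from control of 0.23 in both. The large subunit Rfc1 was at 16.95 and 16.69, 18.37 and 20.55, and 18.35 and 17.95 RPKM, and its log2 difference of 0.20 in the Glis3 knockdown was the smallest of the 40 and did not pass (adjusted p = 0.0926). Rfc3 did not pass in either comparison (0.25 and 0.09). Both Pcna and Tyms have annotated pseudogenes, so their values are less certain where reads map to several places.

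The genes for single-strand binding and Okazaki fragment joining all rose in the Glis3 knockdown. Lig1, the ligase that seals Okazaki fragments, was at 8.45 and 9.22 RPKM in the controls, 13.61 and 16.13 in the Glis3 knockdown, and 12.41 and 11.64 in the CD133 knockdown. The groups did not overlap with each other, and the order was Glis3 knockdown, CD133 knockdown, control. The log2 difference of Lig1 was 0.69 (adjusted p = 0.00909) in the Glis3 knockdown and 0.41 (adjusted p = 0.0346) in the CD133 knockdown. Its rise in the CD133 knockdown was lost with median centring, with quantile normalization and with replicate number as a block. Fen1, the nuclease that trims the flap before ligation, rose by 0.62 and 0.59. Rpa1 and Rpa2, which coat single-stranded DNA, rose in the Glis3 knockdown (0.40 and 0.54) and did not pass in the CD133 knockdown (0.25 and 0.33). The rise of Rpa1 was lost with median centring and with quantile normalization. Exons of Rpa1 overlap Gm47300 on the same strand, so reads there cannot be told apart by strand.

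Nucleotide supply held the gene with the largest difference of the 40. Rrm2, the small subunit of ribonucleotide reductase and the one whose level limits deoxynucleotide production in S phase, lies at chr12:24708241-24714146 (GRCm38, plus strand). It was at 8.88 and 9.27 RPKM in the controls, 17.87 and 24.79 in the Glis3 knockdown, and 18.84 and 17.64 in the CD133 knockdown. Every knockdown library was far above both controls, and the lowest CD133 library and the lower Glis3 library were close together. Mean RPKM was 2.35 times that of the controls in the Glis3 knockdown and 2.01 times in the CD133 knockdown. The log2 difference was 1.13 (SE 0.136, adjusted p = 0.00784) and 0.93 (SE 0.136, adjusted p = 0.0164). The large subunit Rrm1, which is more stable through the cycle, rose by 0.53 in the Glis3 knockdown and did not pass in the CD133 knockdown (0.38, adjusted p = 0.0709). Tk1, the thymidine kinase of the salvage route, was at 2.66 and 2.82 RPKM in the controls, 4.84 and 6.20 in the Glis3 knockdown, and 4.61 and 4.25 in the CD133 knockdown, again with no overlap between controls and knockdowns. It rose by 0.79 (adjusted p = 0.00949) and 0.54 (adjusted p = 0.0278). The rise of Tk1 in the CD133 knockdown was lost with quantile normalization and with replicate number as a block. Tyms, which makes thymidylate from deoxyuridylate, rose by 0.45 in the Glis3 knockdown and did not pass in the CD133 knockdown (0.16).
The Rrm2 promoter is shown because Rrm2 moved the most. The printed stretch ends 14 bases before the start, since an annotated exon begins there, and it holds 1 CCAAT box and no E2F word of the kinds searched.
Rrm2, chr12:24708054-24708240, plus strand: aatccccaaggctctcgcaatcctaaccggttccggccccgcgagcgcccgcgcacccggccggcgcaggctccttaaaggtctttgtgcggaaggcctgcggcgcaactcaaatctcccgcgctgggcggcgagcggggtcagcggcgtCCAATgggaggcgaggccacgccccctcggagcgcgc

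**Figure D2:**
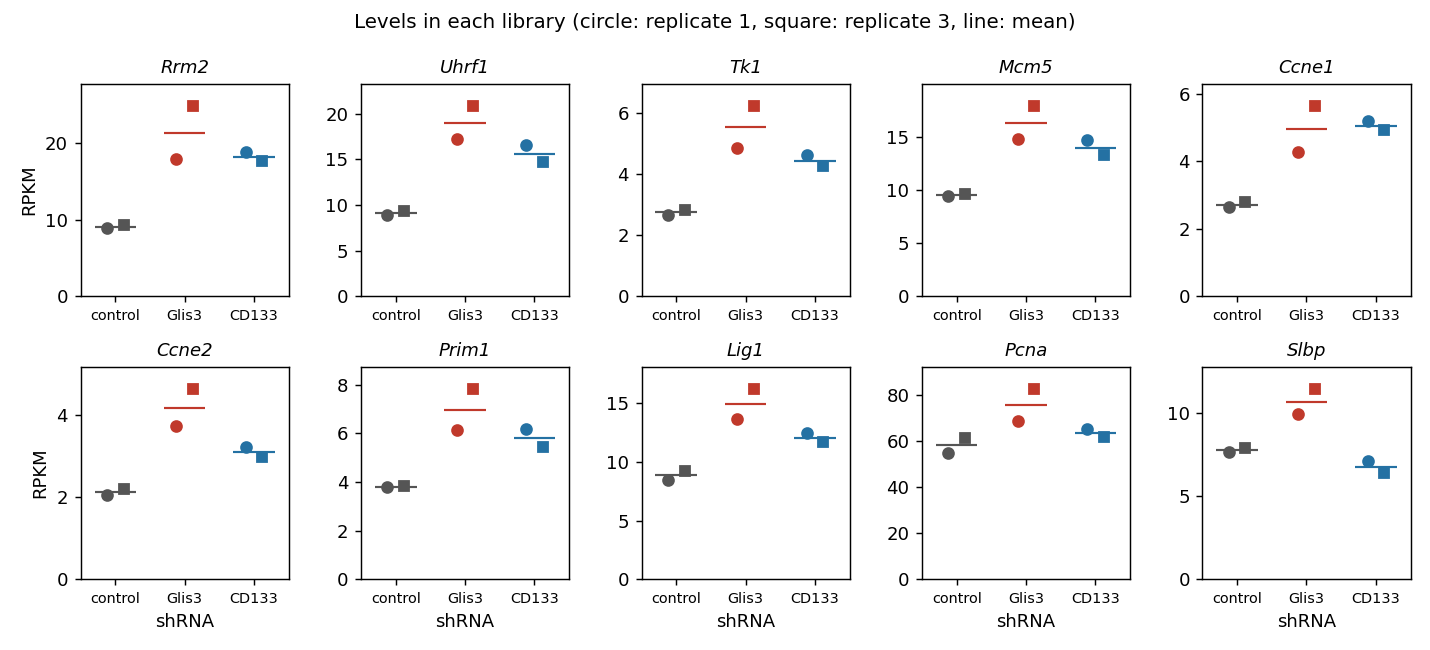
RPKM of 10 genes in each library, with circles for replicate 1, squares for replicate 3 and a line for the mean of each shRNA group; every vertical axis starts at 0. Control libraries lie below both knockdowns in each panel except that of Slbp, in which the CD133 shRNA libraries, at 7.11 and 6.37 RPKM, lie lowest.

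Of the 5 genes grouped under chromatin and methylation behind the fork, 4 rose in the Glis3 knockdown and 2, Uhrf1 and Chaf1b, in the CD133 knockdown. Slbp, whose protein binds histone mRNA and which is described below, is counted among the 5 and among the 4. Uhrf1, which reads half-methylated DNA and recruits the maintenance methyltransferase, was at 8.87 and 9.39 RPKM in the controls, 17.26 and 20.80 in the Glis3 knockdown, and 16.57 and 14.72 in the CD133 knockdown. The 3 groups did not overlap. Its log2 difference was 0.98 (SE 0.098, adjusted p = 0.00570) in the Glis3 knockdown and 0.71 (SE 0.098, adjusted p = 0.0151) in the CD133 knockdown. Dnmt1, the maintenance methyltransferase that UHRF1 recruits, was at 16.24 and 14.75 RPKM in the controls, 18.60 and 26.38 in the Glis3 knockdown, and 18.08 and 16.75 in the CD133 knockdown. Its Glis3 knockdown libraries were far apart, and the log2 difference of 0.49 did not pass (SE 0.148, adjusted p = 0.0749). Chaf1a and Chaf1b, subunits of the factor that places histones on new DNA, rose by 0.71 and 0.27 in the Glis3 knockdown. The rises of Chaf1b in both knockdowns were lost with median centring, with quantile normalization and with replicate number as a block.

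Slbp was the 1 gene of the 40 that differed between the knockdowns. Of all tested genes 4.06% did so, 1.61% with the higher level in the Glis3 knockdown and 2.46% with the lower. Its protein binds the stem-loop of replication-dependent histone mRNAs and is needed for their processing in S phase. The gene lies at chr5:33634952-33652574 (GRCm38, minus strand). Slbp was at 7.68 and 7.90 RPKM in the controls, 9.95 and 11.41 in the Glis3 knockdown, and 7.11 and 6.37 in the CD133 knockdown. The Glis3 knockdown libraries lay above the controls and the CD133 knockdown libraries below them. Slbp rose in the Glis3 knockdown (0.41, adjusted p = 0.0262), and the value of -0.19 in the CD133 knockdown did not pass (95% confidence interval -0.38 to 0.01, adjusted p = 0.179). The log2 difference between the knockdowns was 0.59 (95% confidence interval 0.40 to 0.79, adjusted p = 0.0203). It stayed positive in every alternative fit, at 0.42 to 0.68, but passed in 1 of the 6 fits that each left out 1 library (without Glis3 shRNA library 1). It did not pass with the replicate block (adjusted p = 0.0604) or with only the 2 knockdowns in the fit (adjusted p = 0.0681). Exons of Slbp and of 12 others of the 40 genes overlap a gene on the opposite strand, and no source used here says whether reads were counted by strand.
The Slbp promoter is shown because Slbp alone differed between the knockdowns, and it holds 3 CCAAT boxes and no E2F word of the kinds searched. The window overlaps an exon of Gm10459 on the opposite strand.
Slbp, chr5:33652575-33652774, minus strand: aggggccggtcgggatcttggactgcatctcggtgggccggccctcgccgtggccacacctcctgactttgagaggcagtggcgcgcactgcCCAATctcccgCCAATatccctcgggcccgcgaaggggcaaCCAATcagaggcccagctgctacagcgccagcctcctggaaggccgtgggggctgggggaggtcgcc

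The regulators of S phase entry all rose in both knockdowns. Ccne1, which encodes cyclin E1, was at 2.65 and 2.78 RPKM in the controls, 4.28 and 5.62 in the Glis3 knockdown, and 5.18 and 4.92 in the CD133 knockdown, and the knockdown groups overlapped each other. Its log2 difference was 0.67 (adjusted p = 0.0148) in the Glis3 and 0.70 (adjusted p = 0.0189) in the CD133 knockdown. Ccne2, which encodes cyclin E2, was at 2.06 and 2.19 RPKM in the controls, 3.73 and 4.62 in the Glis3 knockdown, and 3.21 and 2.97 in the CD133 knockdown. For Ccne2 the 3 groups were apart, with a rise of 0.72 (adjusted p = 0.00951) in the Glis3 knockdown and of 0.39 (adjusted p = 0.0499) in the CD133 knockdown. The rise of Ccne2 in the CD133 knockdown was lost with median centring, with quantile normalization and with the replicate block. The difference between the knockdowns was -0.03 (95% confidence interval -0.29 to 0.23) for Ccne1 and 0.33 (0.10 to 0.57, adjusted p = 0.113) for Ccne2. E2f1, the activating E2F factor, was at 3.60 and 3.94 RPKM in the controls, 6.45 and 6.43 in the Glis3 knockdown, and 6.65 and 5.71 in the CD133 knockdown. It rose by 0.64 (adjusted p = 0.00877) and 0.59 (adjusted p = 0.0151), and a difference between the knockdowns was not shown (0.05, 95% confidence interval -0.14 to 0.25).

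**Figure D3:**
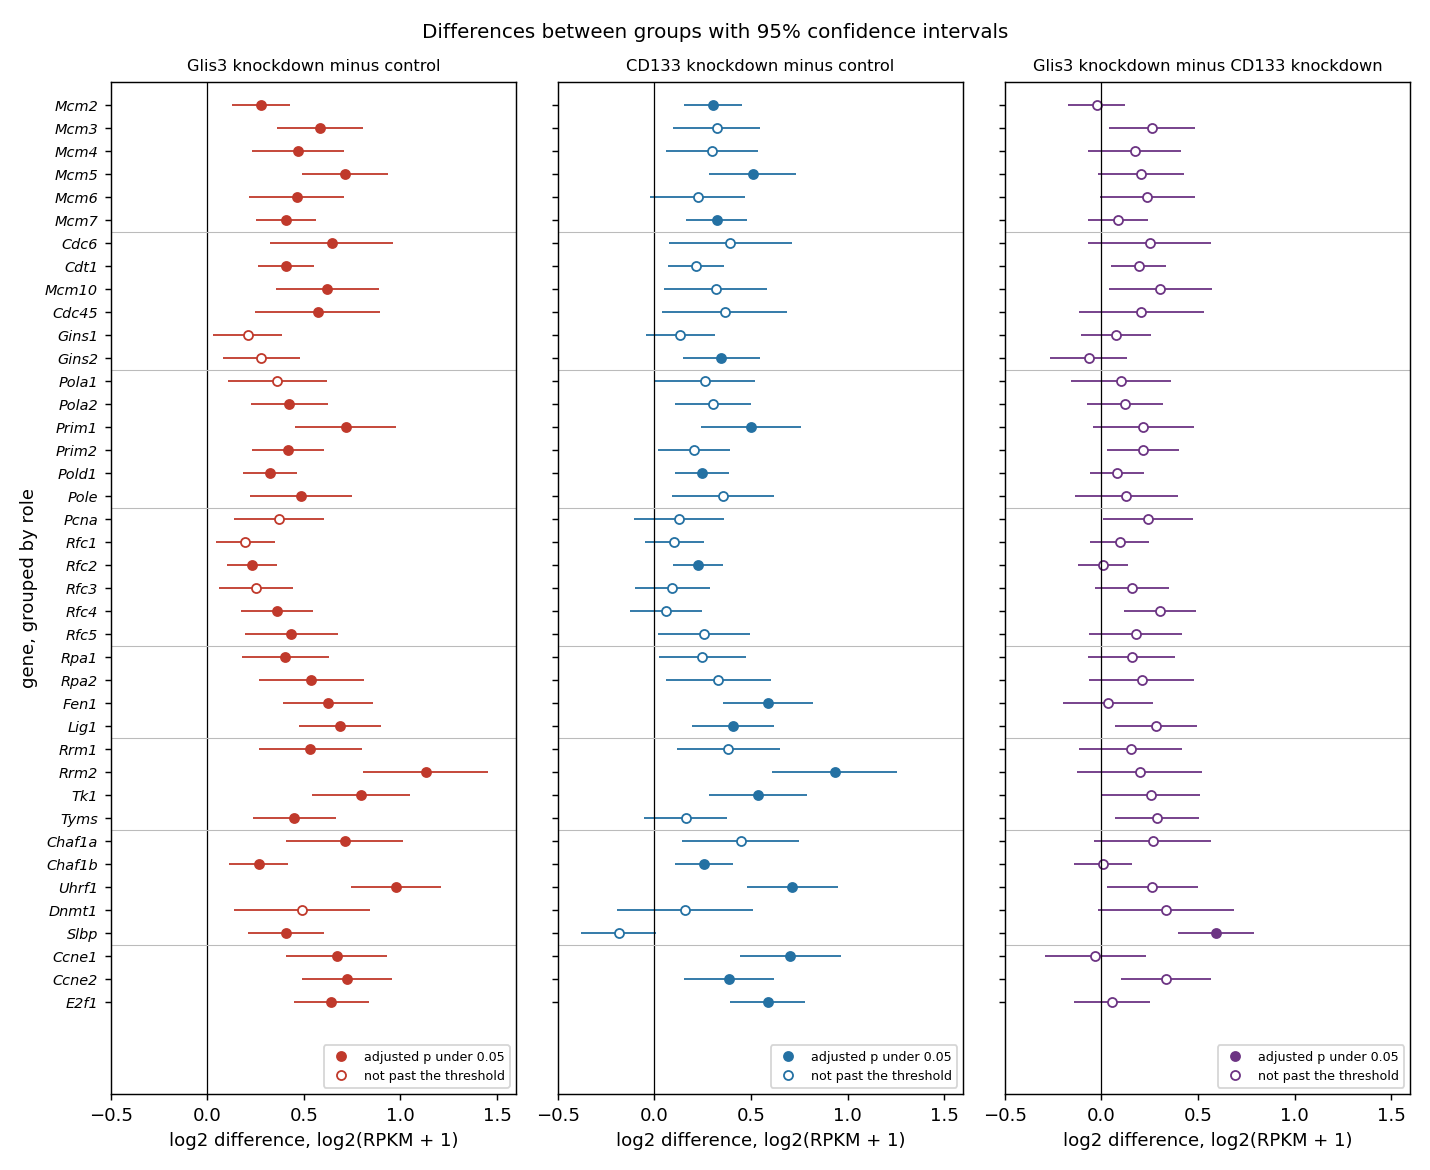
Log2 differences on the log2(RPKM + 1) scale with limma 95% confidence intervals for the 40 genes in 3 comparisons; filled points have an adjusted p under 0.05 over all tested genes. Filled points number 33, 16 and 1 from left to right, and the 1 in the right panel is Slbp.

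By pattern, 15 of the 40 genes rose in both knockdowns, 17 passed in the Glis3 knockdown and not in the CD133 knockdown, Gins2 did the reverse, and Slbp rose in the Glis3 knockdown and was higher there than in the CD133 knockdown. The other 6, Gins1, Pola1, Pcna, Rfc1, Rfc3 and Dnmt1, passed in neither. That 17 genes passed in 1 comparison alone does not show that the knockdowns differed for them, since none of the 17 passed when the knockdowns were compared directly. In that direct comparison 37 of the 40 were higher in the Glis3 knockdown, beside 5472 of the 10829 tested genes. The median log2 difference was 0.20, beside 0.00 over all tested genes. An unadjusted limma p under 0.05 was found for 12 of the 40, beside 2373 of the 10829 tested genes. The Glis3 libraries lay above both CD133 libraries for 19 of the 40, beside 27.9% of all tested genes, and below both for none of the 40, beside 26.8%. Without Glis3 shRNA library 3 the median was 0.060.

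Libraries of a group were not alike for these genes. In the Glis3 knockdown library 3 was above library 1 for 39 of the 40 genes, by a median of 0.24 on the log2(RPKM + 1) scale, and in the CD133 knockdown library 1 was above library 3 for 39 of the 40, with a median of -0.11 for library 3 minus library 1. The control libraries were closer, with a median of 0.05. Genes of mitosis were uneven in the same libraries: all 32 were higher in library 3 of the Glis3 knockdown (median 0.29), and 29 of 32 were higher in library 1 of the CD133 knockdown. Summed RPKM of the 40 genes was 348.3 and 365.4 in the controls, 472.9 and 566.4 in the Glis3 knockdown, and 466.5 and 431.2 in the CD133 knockdown, and that of the mitosis genes was 189.9 and 202.5, 312.7 and 398, and 309.9 and 278.4. Glis3 shRNA library 1 and CD133 shRNA library 1 had almost the same sums. The part of these library differences in the group differences was not tested.

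**Figure D4:**
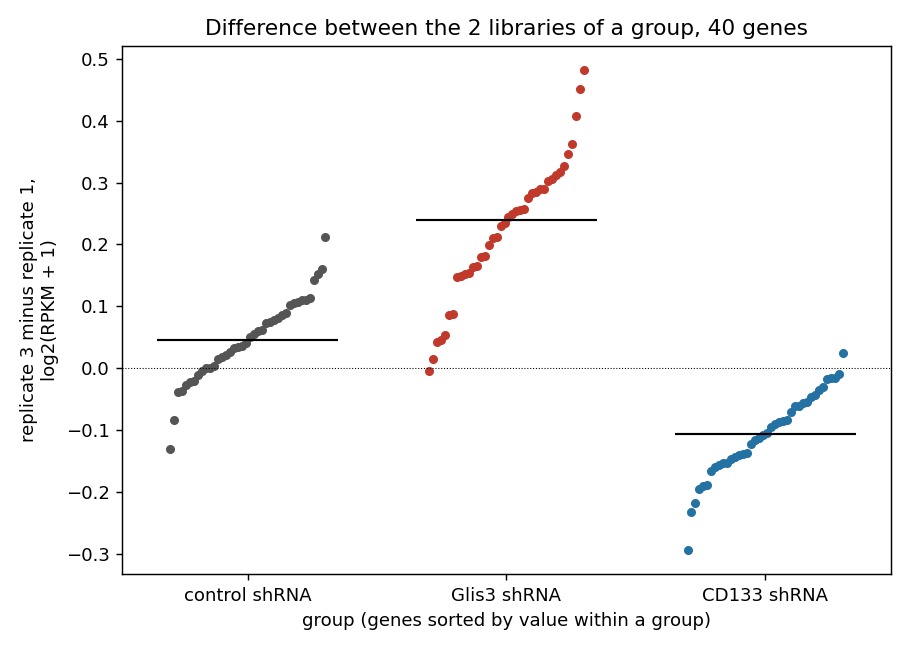
Differences between library 3 and library 1 of the same shRNA group on the log2(RPKM + 1) scale, with 1 point for each of the 40 replication genes, sorted within a group, and a line at the median. Most points lie above 0 in the Glis3 shRNA group, with a median of 0.24, and below 0 in the CD133 shRNA group, with a median of -0.11.

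How many genes passed depended on which libraries were in the fit. Leaving out a library left 1 in its group, and calls among all tested genes fell or grew as well. Counts from these fits, also where none passed, are therefore not particular to the 40 genes. With all 6 libraries, 40 of the 40 genes had an unadjusted limma p under 0.05 in the Glis3 knockdown, beside 3305 of the 10829 tested genes. In the CD133 knockdown 31 of the 40 did, beside 3366 of the 10829. Without control library 1 none of the 40 passed in the Glis3 knockdown by limma (lowest adjusted p = 0.0691), although 35 had an unadjusted p under 0.05, and without control library 3 none passed either (lowest adjusted p = 0.0527, with 36 under 0.05 unadjusted). With either control left out, 21 and 82 of all tested genes passed, beside 1400 with all libraries, and the lone control was assumed to vary like the other groups. Without Glis3 shRNA library 3, 13 passed: Mcm3, Mcm5, Mcm7, Cdt1, Prim1, Fen1, Lig1, Rrm2, Tk1, Uhrf1, Ccne1, Ccne2 and E2f1. In the CD133 knockdown none passed without control library 1, control library 3 or CD133 shRNA library 1 (18, 21 and 17 with an unadjusted p under 0.05), and Fen1, Rrm2, Uhrf1, Ccne1 and E2f1 passed without CD133 shRNA library 3. In the other direction, 26 and 25 passed in the CD133 knockdown without Glis3 shRNA library 1 or 3. The medians moved less, from 0.34 to 0.61 in the Glis3 knockdown and from 0.25 to 0.36 in the CD133 knockdown, and all 40 differences in the Glis3 knockdown stayed above 0 in each of these fits.

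**Figure D5:**
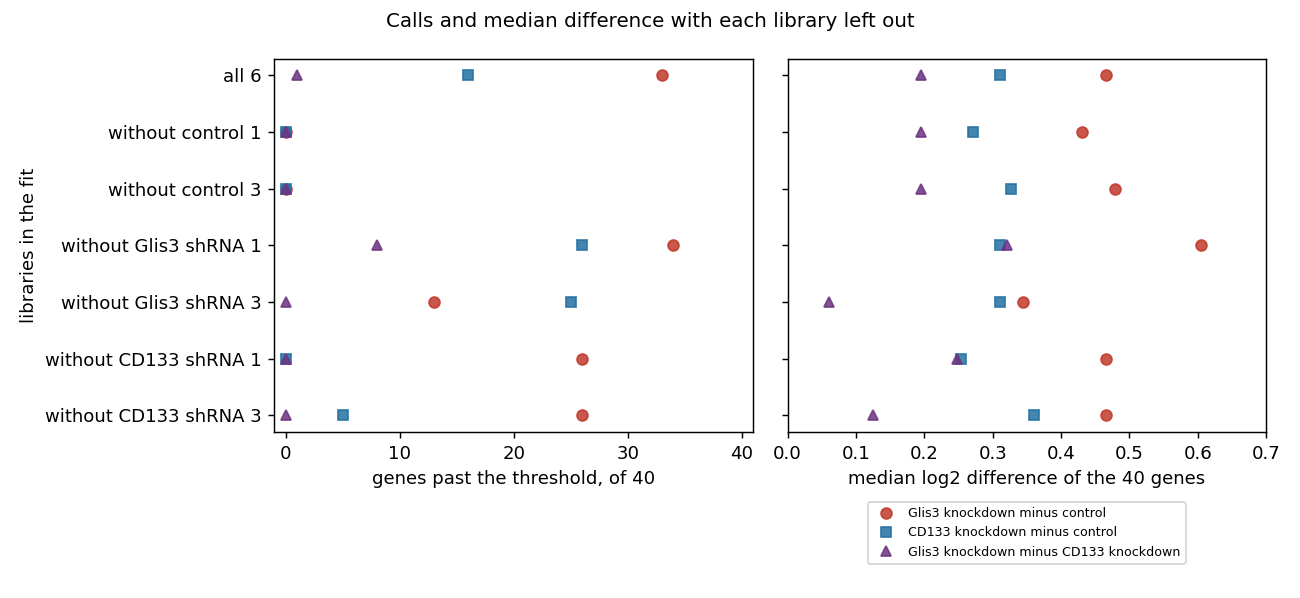
Number of the 40 genes past the threshold, and their median log2 difference, with all 6 libraries and with each left out in turn, for 3 comparisons. Counts fall to 0 when either control library is left out, while the medians of both knockdowns against control stay above 0.

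Other genes of the pathway were taken from lists of the same processes. Each list count below stands beside the share over all tested genes. In the Glis3 knockdown 8.39% of all tested genes rose and 4.53% fell, and in the CD133 knockdown 8.16% rose and 3.64% fell. Of 46 further replication genes tested (origin recognition, fork protection, other polymerase and loader subunits), 20 rose in the Glis3 knockdown and none fell, with a median log2 difference of 0.27, and 6 rose in the CD133 knockdown, with a median of 0.17. Recql4, a helicase of replication initiation, was at 0.85 RPKM in controls and 1.88 in the Glis3 knockdown (0.64, adjusted p = 0.0112), Timeless, which protects the fork, rose by 0.51, Pole2 by 0.40 and the origin subunit Orc6 by 0.36. Of 28 further nucleotide synthesis genes 4 rose in the Glis3 knockdown, among them Dut (0.50), which removes dUTP, and none did without Glis3 shRNA library 3 or either control. In the CD133 knockdown 2 rose, a share close to the 8.16% of all tested genes, and 3 fell, namely Rrm2b (-0.29), Mthfd2 (-0.44) and Impdh2 (-0.20). Of 33 tested genes of G1 to S control 11 rose and 1 fell in the Glis3 knockdown. Cdkn2c, an inhibitor of CDK4 and CDK6, rose by 0.84, Ccna2 (cyclin A2) by 0.83 and Cdk2 by 0.51, while Cdkn2b, another inhibitor of the same kinases, fell by 0.33 and was also lower in the Glis3 than in the CD133 knockdown (-0.26, adjusted p = 0.0498), a call between the knockdowns that was lost with median centring, with quantile normalization and with any library left out. In the CD133 knockdown 6 of the 33 rose. Of 13 checkpoint genes 5 rose in the Glis3 knockdown and 2 in the CD133 knockdown, with Cdc25b, a phosphatase that activates CDKs, at 0.77 and 0.48. With median centring the nucleotide synthesis list in the CD133 knockdown had 0 rises and 4 falls. Without Glis3 shRNA library 3, 7 of the 46 replication genes and 5 of the 33 G1 to S genes rose in the Glis3 knockdown, and without control library 1 none of these lists held a gene that passed in either knockdown. The 6 further replication genes that rose in the CD133 knockdown came to 3 with either scaling and to 0 without either control or either CD133 shRNA library.

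All 32 mitosis genes had differences above 0 in both knockdowns, with 30 rises and a median of 0.74 in the Glis3 knockdown and 20 rises and a median of 0.53 in the CD133 knockdown. Without Glis3 shRNA library 3, 21 of the mitosis genes rose in the Glis3 knockdown, and without control library 1 or 3, 0 and 1 did. None rose in the CD133 knockdown without either control or CD133 shRNA library 1, and 7 rose without CD133 shRNA library 3. Of 8 tested genes of the replication-dependent histone clusters 3 rose in the Glis3 knockdown, among them Hist1h4i (0.79), beside 8.39% of all tested genes. In the CD133 knockdown 1 of the 8 rose, beside 8.16% of all tested genes. The histone calls came to 0 without either control, in the Glis3 knockdown also without Glis3 shRNA library 3 and in the CD133 knockdown without CD133 shRNA library 1. Most replication-dependent histone mRNAs lack a poly(A) tail and the libraries were selected for it, so these values cover what poly(A) selection kept. Of 20 genes of the cytosolic ribosome 2 fell in the Glis3 knockdown (median -0.16) and 16 in the CD133 knockdown (median -0.37), and none rose. The falls in the Glis3 knockdown were lost with any library left out, and those in the CD133 knockdown came to 0 without either control or CD133 shRNA library 1 and to 3 without CD133 shRNA library 3.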

How the data were processed

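Poly(A) RNA from 6 colony libraries was sequenced with a stranded kit, per the labels' protocols. TopHat2, HTSeq, bcl2fastq 2.18.0.12 and the mouse build mm10 are named in the submitters' processing notes, with no order or settings. Which annotation and library totals were used, and whether counting used strand, is not given in the sources used here. RPKM values with 2 decimals were deposited by the authors in 1 table of 11164 genes, each reaching at least 1 RPKM in some library. RPKM are not counts, and counts were not recovered: at the best depths 56.8% to 62.6% of low values were whole within 0.15 read. The share by construction is 30% at any 1 depth. The best of a scan from 3 to 80 megareads is expected to exceed it, so the estimated depths and reads are rough.

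Values were analysed as log2(RPKM + 1), which understates changes of low genes, for 10829 genes whose mean reached 1 RPKM. Group means were fitted with limma 3.58.1 (R 4.3.3; empirical Bayes with a variance trend, 3 residual and 3.69 prior degrees of freedom) and tested on simulated data. Tests were two-sided and adjusted by Benjamini-Hochberg over all tested genes. Standard errors and intervals are the moderated ones. Gene positions come from GENCODE M21 (GRCm38), in which 11000 of the 11164 symbols were found, and promoters from RefSeq.

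The 40 genes and all lists were chosen with earlier results of these data known. Values in all libraries were given for genes with the 3 largest and 3 smallest differences in the Glis3 knockdown, the 3 largest in the CD133 knockdown, the highest level, and the largest difference in each role. Mcm2, Gins2, Slbp, Dnmt1 and E2f1 were added after their values were seen. Alternatives covered the pseudocount, the filter on low values, scaling, the groups in the fit, the variance trend, a replicate block and each library left out.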

Additional observations from a re-analysis of the deposited data

Results flagged for a closer look

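Slbp, which encodes the histone stem-loop binding protein, differed between the knockdowns. Its log2 difference was 0.41 in the Glis3 knockdown and -0.19 in the CD133 knockdown against the same controls, and the limma contrast between the knockdowns was 0.59 (SE 0.0817, adjusted p = 0.0203). Both Glis3 knockdown libraries (9.95 and 11.41 RPKM) lay above both CD133 knockdown libraries (7.11 and 6.37 RPKM). With each library left out in turn the value was 0.50 to 0.68, and it passed in 1 of those 6 fits. It did not pass with the replicate block (adjusted p = 0.0604) or with only the 2 knockdowns in the fit (adjusted p = 0.0681).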

How the results depend on the processing

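No alternative turned the direction of a difference in the Glis3 knockdown. The number of genes past the threshold ranged from 0 to 34 in the Glis3 knockdown, 0 to 26 in the CD133 knockdown and 0 to 8 between the knockdowns when each library was left out in turn, and the medians from 0.34 to 0.61, 0.25 to 0.36 and 0.060 to 0.32. In the CD133 knockdown 9 genes passed with median centring, 6 with quantile normalization and 25 with only the 2 groups compared in the fit, which gave 0 between the knockdowns (8 with an unadjusted p under 0.05). A pseudocount of 5 RPKM gave medians of 0.32, 0.19 and 0.13, median centring 0.41 in the Glis3 and 0.26 in the CD133 knockdown, and quantile normalization 0.25 in the CD133 knockdown. Over all tested genes, the share of passing genes that were higher was 64.9% in the Glis3 knockdown, 44.7% with median centring and 50.8% with quantile normalization, and in the CD133 knockdown 69.2%, 47.7% and 50.4%. The cause of these shifts was not tested.

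Deviations of same-numbered libraries correlated at -0.372 for control and Glis3, -0.428 for control and CD133, and 0.032 for Glis3 and CD133 knockdowns. Each group gives 1 such deviation per gene, so these values cannot show whether replicate numbers 1 and 3 pair the libraries. With the replicate block 15 genes passed in the Glis3 knockdown, 4 in the CD133 knockdown and 0 between the knockdowns by limma (10 with an unadjusted p under 0.05).

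Directions turned in a few small values. The difference of Rfc4 in the CD133 knockdown was -3e-04 with quantile normalization. Between the knockdowns, with a library left out, differences ran from -0.056 to 0.0052 for Mcm2, -0.20 to 0.13 for Ccne1, -0.0012 to 0.15 for Gins1, -0.055 to 0.26 for Pola1, -0.016 to 0.27 for Pole, -0.081 to 0.15 for Fen1, -0.022 to 0.32 for Rrm1, -0.027 to 0.42 for Rrm2, -0.019 to 0.038 for Chaf1b and -0.040 to 0.15 for E2f1. Each group has 2 libraries, and an estimated 103 reads or more stand behind each value of the 40 genes.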
